A study of Danio rerio with 6 samples.

Results

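The collagen genes and their dedicated chaperone were followed in whole zebrafish (Danio rerio) embryos homozygous either for a synpo2 mutation or for its wild-type allele. The members were every gene ID in the deposited counts whose symbol starts with col and a number, together with both SERPINH1 copies. This gave 58 of the 31484 gene IDs. Of these, 56 are collagen chain genes, of 22 collagen types, and 2 are SERPINH1 genes.

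RNA was taken from whole embryos at 22 hours post fertilization in 2 groups of 3 libraries. The first group was homozygous for the synpo2 mutation (labelled synpo2 -/-) and the second was homozygous for the wild-type allele (labelled synpo2 wt/wt). synpo2 encodes synaptopodin-2, which binds actin and is found at the Z-discs of muscle. No treatment or transgene is given for either group, and the sources used here do not state the lesion, the mutated copy, the strain or how many embryos were pooled. The series describes the 3 libraries of a group as biological replicates.

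Collagens are extracellular proteins in which chains wind into a triple helix and then assemble into fibrils, networks or filaments. Procollagen folds in the endoplasmic reticulum, where prolyl and lysyl residues are hydroxylated and where Hsp47, the product of SERPINH1, binds the finished helix. In the zebrafish embryo the notochord sheath is rich in type II collagen, the skin and the myosepta are rich in type I, and type IV forms the core network of basement membranes. Zebrafish carry many of these genes as a and b copies that arose in the fish genome duplication.

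Library totals were 32714170 to 34227596 counts in the mutants and 32850819 to 142789686 in wild type. Wild type replicate 1 was 4.26 times as deep as the mean of the other 5. It was also the lowest or the highest of the 6 libraries for 27 of the 52 tested members (51.9%) and for 54.4% of all genes tested, so results that rest on it are given with and without it. The gene synpo2b had 52 to 57 counts in the mutant libraries and 150 to 496 in wild type (log2 fold change -1.53, SE 0.27, edgeR adjusted p = 0.15; DESeq2 adjusted p = 0.000114). All mutants were below all wild types, but since the mutated copy is not stated this is no full check of the labels. Library pairs of a group differed by far more than sampling noise.

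After the filter on low counts, 52 of the 58 members were tested, and by edgeR 0 changed at an adjusted p under 0.05, against 0.0735% of the 20415 genes tested (0.0147% higher and 0.0588% lower in mutants). The smallest edgeR adjusted p among the members was 0.197. At an unadjusted p under 0.05, 11 members were lower in mutants (21.2%, against 6.83% of all genes tested) and 2 were higher (3.85%, against 4.39%). DESeq2, run as an alternative, called 3 of the 52 members, against 2.21% of all genes. These were serpinh1a and col28a2a, higher in mutants as were 0.706% of all genes, and col1a1b, lower as were 1.5%. limma-voom called 0. The CPM, the count scaled to library depth with TMM, was lower in all 3 mutants than in all 3 wild types for 9 of 52 members (17.3%, against 9.63% of all genes tested), and higher in all 3 for 4 (7.69%, against 8.45%). The median log2 fold change of the tested members, mutant over wild type, was -0.08, against 0.01 for all genes tested, and 33 of 52 were below 0 (63.5%, against 49.1%). Without wild type replicate 1 the median was -0.11 and 36 of 53 were below 0, against 49% of all genes tested. Of those 53, 11 were lower and 2 higher at an unadjusted edgeR p under 0.05, against 6.54% and 6.79% of all genes tested. The members were measured in the same libraries and are not independent of each other. These medians and shares are descriptions, and a shift of the members as a set was not tested. In whole embryos, fewer cells of a type and less RNA per cell cannot be told apart.

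**Figure D1:**
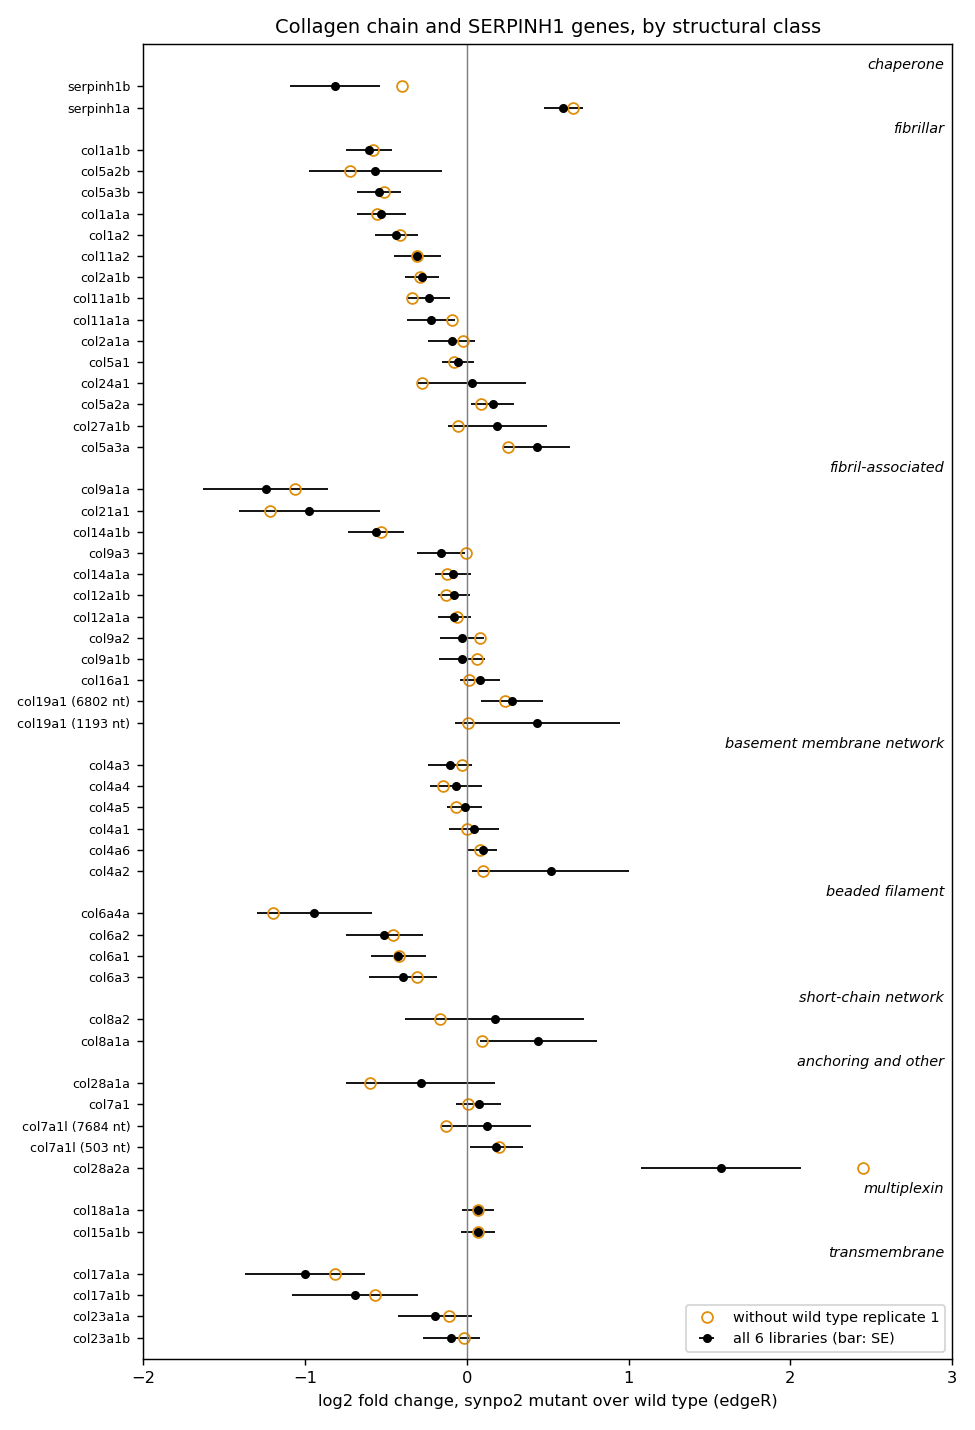
Log2 fold change of each tested member, synpo2 mutant over wild type (x axis), grouped by structural class (y axis). Black points with bars are edgeR estimates with their SE over all 6 libraries, and open circles are the estimates without wild type replicate 1. The type I chains, col5a3b and the type VI chains lie left of 0 under both, serpinh1a and col28a2a lie right of 0, and serpinh1b, col28a2a, col4a2 and col8a1a are among those that move most when that library is left out.

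The members as a whole took 0.757% ± 0.0291 of the counts in mutants and 0.793% ± 0.0518 in wild type (SD, n = 3 each). Levels between genes were compared as CPM divided by the exonic length in kilobases (RPKM). By this measure col2a1a stood first, at 214 RPKM in mutants and 228 RPKM in wild type. It was followed over the 6 libraries by col1a1a (96.5 RPKM in mutants, 139 in wild type), the type IX chain col9a1b (113 and 115) and the type XI chain col11a1a (77.1 and 89.8). Next came col1a2 (68.0 and 92.0), the short-chain collagen gene col8a1a (83.7 and 61.6) and the type IX chains col9a2 (70.5 and 72.0) and col9a3 (65.6 and 73.1). The CPM ranges of the genotypes overlapped for col2a1a, col9a1b, col9a2, col9a3, col11a1a and col8a1a, and were apart for col1a1a and col1a2. At the other end, type VI, XVII, XIX, XXI and XXVII chains all lay at or below 3.09 RPKM in both groups. The genes of types II, IX, XI and VIII among the first 8 are known for activity in the zebrafish notochord.

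**Figure D2:**
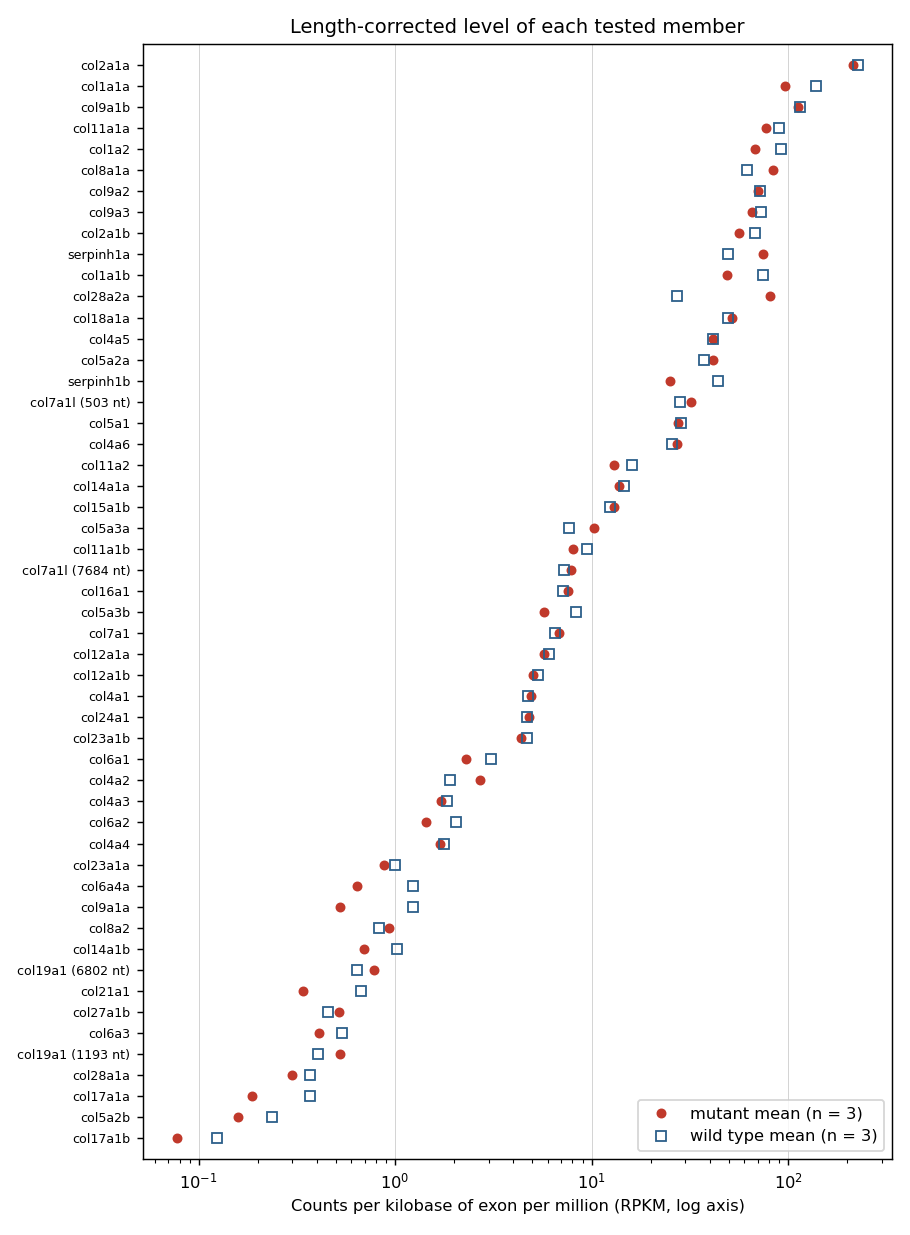
Length-corrected level of each tested member (x axis, RPKM on a log axis), as the mean of the 3 mutant libraries (filled circles) and of the 3 wild-type libraries (open squares), ordered by the mean over all 6. Levels span from col17a1b to col2a1a, and the 2 symbols are farthest apart for col28a2a.

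The 2 SERPINH1 copies lay on opposite sides of wild type. serpinh1a (ENSDARG00000075954, GRCz10 chromosome 10, 38568512 to 38577952, plus strand, 5 exon entries) had 303, 300.5 and 255 CPM in mutant replicates 1 to 3, against 204, 191 and 172 CPM in wild type replicates 1 to 3. All 3 mutants were above all 3 wild types. The difference was 1.51-fold (log2 fold change 0.60, SE 0.12, edgeR adjusted p = 0.197), and DESeq2 gave an adjusted p of 0.00716. serpinh1b (ENSDARG00000019949, chromosome 15, 29450292 to 29454673, minus strand), the copy known in zebrafish for its activity in notochord and other collagen-secreting tissue, had 86.4, 103 and 89.2 CPM in mutant replicates 1 to 3, against 244, 129.9 and 116 CPM in wild type replicates 1 to 3. All 3 mutants were below all 3 wild types, but wild type replicate 1 stood far above the rest (log2 fold change -0.81, SE 0.28, edgeR adjusted p = 0.37). Without that library the log2 fold change was -0.40 (SE 0.12, edgeR adjusted p = 0.255), and for serpinh1a it was 0.66 (SE 0.12, edgeR adjusted p = 0.152). The summed level of both copies was 379 ± 31.2 CPM in mutants and 352 ± 84.6 CPM in wild type (SD, n = 3 each). It was 389, 404 and 344 CPM in mutant replicates 1 to 3, against 448, 321 and 288 CPM in wild type replicates 1 to 3. Thus all mutants were below wild type replicate 1 and above the other wild types.

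The per-kilobase ratio of serpinh1a to serpinh1b was 3.39, 2.81 and 2.76 in mutant replicates 1 to 3, against 0.811, 1.42 and 1.43 in wild type replicates 1 to 3. Thus serpinh1a was the more abundant copy in each mutant and in wild type replicates 2 and 3, and serpinh1b in wild type replicate 1. The groups did not overlap, and the difference on the log2 scale was 1.33 (exact two-sided permutation test, p = 0.1, the smallest that 3 against 3 allows, adjusted p = 0.4 over 16 ratios). The difference was 1.06 without wild type replicate 1. The groups of each copy were already apart, in opposite directions. The separation of the ratio and its exact permutation p were therefore fixed by those values and are no further result. A gene model on the opposite strand overlaps 33.1% of the counted serpinh1a length. That model averaged 63.7 counts a library, against 11222 for serpinh1a, and the sources used here do not say whether the counting used strand.

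**Figure D3:**
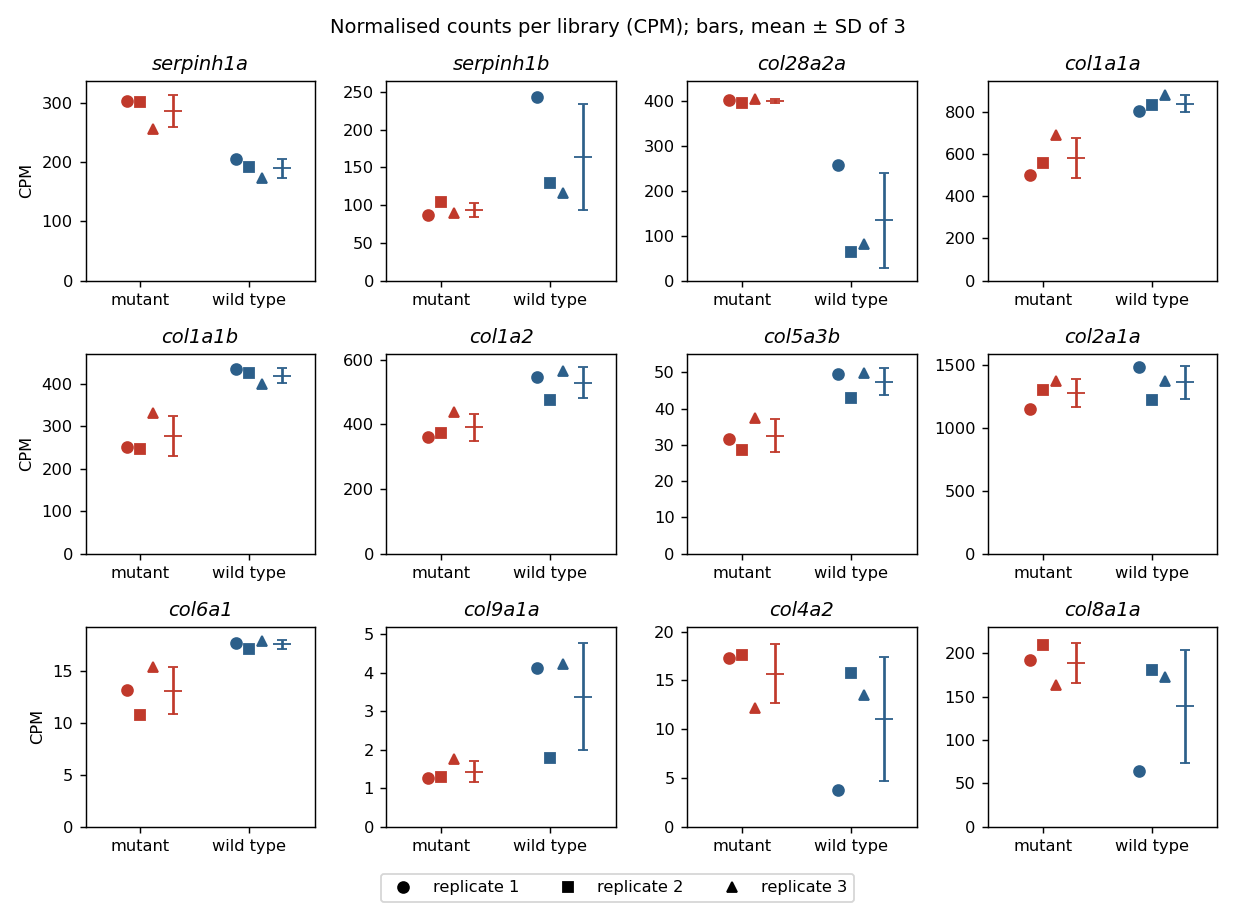
CPM (y axes, each starting at 0) of 12 members in every library, mutants left and wild type right, with one marker shape per replicate number, and the mean ± SD of 3 beside the points. The groups do not overlap in serpinh1a, serpinh1b, col28a2a, col1a1a, col1a1b, col1a2, col5a3b, col6a1 and col9a1a. The 12 are a selection. Over all 52 tested members, 9 were lower in all mutants (17.3%, against 9.63% of all genes tested). Another 4 were higher in all mutants (7.69%, against 8.45%). Wild type replicate 1 stands apart from the other wild types in serpinh1b, col28a2a, col4a2 and col8a1a.

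The fibrillar collagens, which form the tensile fibrils, counted 15 members, all tested. Of these, 11 were below wild type and 4 above, with a median log2 fold change of -0.23. Their summed level was 4129 ± 370.2 CPM in mutants and 4926 ± 237 CPM in wild type (SD, n = 3 each), with the highest mutant at 4510 CPM and the lowest wild type at 4655 CPM. Among the marker lists described further on, the sums for sclerotome and fibroblast, epidermis and fin fold, and fast muscle were also lower in all mutants. The tailbud sum was higher in all mutants, and the notochord and yolk syncytial sums overlapped. The part of any list in the fibrillar values was not tested. By edgeR 0 of 15 collagens passed, 5 were lower at an unadjusted p under 0.05 (against 6.83% of all genes tested), and DESeq2 called 1, which was lower (against 1.5%).

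The 3 type I genes, whose chains make the main fibril of skin and tendon, had the most negative fold changes among the 11 members of highest mean RPKM. That cut is the rank of col1a1b, the lowest of the 3 in level, and was not set beforehand. Some members of lower level had more negative values, such as serpinh1b at -0.81. col1a1a (ENSDARG00000012405, chromosome 3, 23090499 to 23108910, plus strand) had 501, 555 and 688 CPM in mutant replicates 1 to 3, against 804, 831 and 880.4 CPM in wild type replicates 1 to 3. Every mutant was below every wild type, with mutant replicate 3 closest (log2 fold change -0.53, SE 0.15, edgeR adjusted p = 0.322). col1a1b (ENSDARG00000035809, chromosome 12, 3060966 to 3098750, minus strand) had 250.5, 247 and 330.5 CPM in mutant replicates 1 to 3, against 434, 424 and 399 CPM in wild type replicates 1 to 3. Its groups were also apart, again with mutant replicate 3 closest to wild type (log2 fold change -0.60, SE 0.14, edgeR adjusted p = 0.276). This was the type I gene that DESeq2 called (adjusted p = 0.0297). col1a2 (ENSDARG00000020007, chromosome 19, 41396101 to 41415860, plus strand) had 361, 374 and 439 CPM in mutant replicates 1 to 3, against 547, 475 and 565 CPM in wild type replicates 1 to 3. These ranges were apart too (log2 fold change -0.43, SE 0.13, edgeR adjusted p = 0.338). The 3 log2 fold changes were -0.56, -0.58 and -0.41 without wild type replicate 1, in the order col1a1a, col1a1b and col1a2. Part of col1a1a (25.4% of its counted length) is overlapped by a gene model on the other strand that averaged 244 counts a library, against 36717 for col1a1a.

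Type V collagen starts and limits the growth of type I fibrils, and its genes did not lie together. col5a3b (ENSDARG00000101816, chromosome 1, 58545607 to 58581062, minus strand) had 31.7, 28.5 and 37.5 CPM in mutant replicates 1 to 3, against 49.6, 43.0 and 49.7 CPM in wild type replicates 1 to 3. The groups were apart, with all mutants lower (log2 fold change -0.54, SE 0.14, edgeR adjusted p = 0.292). col5a3a (ENSDARG00000098294, chromosome 3), the other copy, had 67.9, 76.0 and 64.9 CPM in mutant replicates 1 to 3, against 38.0, 67.5 and 49.4 CPM in wild type replicates 1 to 3. Here the mutants were the higher group on average but overlapped wild type, where replicate 1 was the lowest library (log2 fold change 0.43, SE 0.21, and 0.25 without it). The main type V chain genes were close to wild type. col5a1 averaged 268 ± 10.8 CPM in mutants and 278 ± 15.6 CPM in wild type, and col5a2a 211 ± 29.3 and 189 ± 17.2 CPM (SD, n = 3 each), with log2 fold changes of -0.05 (SE 0.10) and 0.16 (SE 0.13). The low copy col5a2b was at 0.787 and 1.17 CPM (log2 fold change -0.56, SE 0.41).

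Type II collagen is the fibril of the notochord sheath and of cartilage, and type XI is built into the same fibrils. col2a1a (ENSDARG00000069093, chromosome 8, 21163335 to 21187388, plus strand) had 1154, 1305 and 1371 CPM in mutant replicates 1 to 3, against 1488, 1221 and 1375 CPM in wild type replicates 1 to 3. The groups overlapped in part, with mutant replicate 1 lowest and wild type replicate 1 highest (log2 fold change -0.09, SE 0.15, edgeR adjusted p = 0.832). col2a1b (ENSDARG00000011407, chromosome 11, 32007 to 110423, minus strand) had 274, 298 and 316 CPM in mutant replicates 1 to 3, against 350.2, 361 and 363 CPM in wild type replicates 1 to 3. All mutants were below all wild types for this copy (log2 fold change -0.27, SE 0.10, edgeR adjusted p = 0.409). The leading type XI gene, col11a1a (ENSDARG00000026165, chromosome 24), had 505, 541 and 572 CPM in mutant replicates 1 to 3, against 738, 539.9 and 609 CPM in wild type replicates 1 to 3. The groups overlapped and wild type replicate 1 was the highest library (log2 fold change -0.22, SE 0.15, edgeR adjusted p = 0.608, and -0.09 without that library). On the same scale col11a1b was at -0.23 (SE 0.13) and col11a2 at -0.31 (SE 0.14), and their groups overlapped too. For col11a1b the overlap was with wild type replicate 1 alone, and without it the log2 fold change was -0.34 (SE 0.11, edgeR adjusted p = 0.275). The minor fibrillar genes col24a1 and col27a1b, for types XXIV and XXVII, were at 0.03 (SE 0.33) and 0.19 (SE 0.31), and at -0.27 and -0.06 without wild type replicate 1.

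Fibril-associated collagens sit on the surface of fibrils and link them to their surroundings. All 12 members were tested, 9 were below wild type, the median log2 fold change was -0.08, and 0 passed by edgeR or DESeq2. The abundant type IX genes, whose chains coat type II fibrils, were close to wild type. col9a1b (ENSDARG00000031483, chromosome 13) had 385, 447 and 449 CPM in mutant replicates 1 to 3, against 491, 371 and 446 CPM in wild type replicates 1 to 3. col9a2 (ENSDARG00000024492, chromosome 19) had 251, 272 and 295 CPM in mutant replicates 1 to 3, against 319, 241 and 275 CPM in wild type replicates 1 to 3. col9a3 (ENSDARG00000037845, chromosome 23) had 195, 214 and 203 CPM in mutant replicates 1 to 3, against 274, 188 and 221 CPM in wild type replicates 1 to 3. The groups overlapped for each, and wild type replicate 1 was the highest library for all 3. Their log2 fold changes were -0.03 (SE 0.14), -0.03 (SE 0.14) and -0.16 (SE 0.15), in that order, and 0.06, 0.08 and -0.0022 without wild type replicate 1. The rare copy col9a1a (ENSDARG00000073699, chromosome 11, 11291319 to 11317662, minus strand) had 1.26, 1.28 and 1.75 CPM in mutant replicates 1 to 3, against 4.14, 1.77 and 4.22 CPM in wild type replicates 1 to 3. All mutants were below all wild types, although wild type replicate 2 lay just above the mutants (log2 fold change -1.24, SE 0.39, edgeR adjusted p = 0.338). The log2 fold change was the most negative of any member over all 6 libraries, but without wild type replicate 1 it was -1.06, behind col21a1 at -1.21 and col6a4a at -1.20.

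Type XII and type XIV collagens are linkers between fibrils, and zebrafish make type XIV in epithelia. col14a1b (ENSDARG00000076623, chromosome 19, 40466 to 61377, plus strand) had 4.96, 4.499 and 4.98 CPM in mutant replicates 1 to 3, against 7.37, 6.94 and 6.995 CPM in wild type replicates 1 to 3. The groups were apart and each was narrow (log2 fold change -0.56, SE 0.17, edgeR adjusted p = 0.338). The more abundant copy col14a1a averaged 116 ± 7.29 CPM in mutants and 123 ± 12.1 CPM in wild type, and col12a1a and col12a1b both had a log2 fold change of -0.08 (SE 0.10). For the remaining genes of this class, col16a1 was at 0.08 (SE 0.12) on that scale, col21a1 at -0.97 (SE 0.44, and -1.21 without wild type replicate 1) from 18 to 40 counts per mutant library, and the longer col19a1 model at 0.28 (SE 0.19). The shorter col19a1 model, which lies upstream of the longer one on the same strand of chromosome 13, had 17 to 28 counts per library and was at 0.44 (SE 0.51), or 0.01 without wild type replicate 1.

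The 6 type IV genes, which build the network of basement membranes, centred on wild type, with 3 members below and 3 above and a median log2 fold change of 0.02. Their summed level was 594 ± 21.2 CPM in mutants and 577 ± 33.8 CPM in wild type (SD, n = 3 each). These genes lie in the genome as head-to-head pairs. col4a6 (chromosome 7, 50645367 to 50827420, minus strand) and col4a5 (50828152 to 50919360, plus strand) are 731 bases apart, on opposite strands. col4a6 had 230.4, 235 and 225 CPM in mutant replicates 1 to 3, against 209.5, 212 and 224 CPM in wild type replicates 1 to 3. All mutants were above all wild types by a narrow margin (log2 fold change 0.10, SE 0.09, edgeR adjusted p = 0.707). col4a5 had 288, 261 and 253 CPM in mutant replicates 1 to 3, against 249, 277 and 283 CPM in wild type replicates 1 to 3. The groups overlapped (log2 fold change -0.01, SE 0.11, edgeR adjusted p = 0.978). col4a1 and col4a2 (chromosome 9, 8652642 to 8691828 on the minus strand and 8751910 to 8904769 on the plus strand) lie 60081 bases apart as annotated. col4a1 had 39.4, 52.7 and 46.7 CPM in mutant replicates 1 to 3, against 42.2, 40.1 and 52.2 CPM in wild type replicates 1 to 3. The groups overlapped, with a log2 fold change of 0.05 (SE 0.15). col4a2 had 17.3, 17.6 and 12.1 CPM in mutant replicates 1 to 3, against 3.77, 15.7 and 13.5 CPM in wild type replicates 1 to 3. A single library, wild type replicate 1, held a level far below all others, and the log2 fold change was 0.52 (SE 0.48) with it and 0.10 (SE 0.20) without it. The pair col4a4 and col4a3 (chromosome 15) shares 580 bases of counted exon on opposite strands, and whether the counting told their reads apart is not known. Both were near wild type, at -0.07 (SE 0.16) and -0.10 (SE 0.13).

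Type VI collagen forms beaded filaments around muscle fibres and other cells, and mutations of its genes cause congenital muscle disease in humans. All 4 genes were below wild type, with a median log2 fold change of -0.47, and 0 passed. Their summed level was 33.6 ± 6.56 CPM in mutants and 48.9 ± 2.02 CPM in wild type (SD, n = 3 each). col6a1 (ENSDARG00000074908, chromosome 11, 33733724 to 33802916, minus strand) had 13.1, 10.8 and 15.4 CPM in mutant replicates 1 to 3, against 17.7, 17.1 and 17.9 CPM in wild type replicates 1 to 3. The groups were apart, and mutant replicate 3 was again closest to wild type (log2 fold change -0.42, SE 0.17, edgeR adjusted p = 0.418). col6a2, its neighbour 36207 bases away on the same strand, had 6.37, 7.87 and 11.5 CPM in mutant replicates 1 to 3, against 13.05, 11.2 and 12.3 CPM in wild type replicates 1 to 3. Mutant replicate 3 was above wild type replicate 2, so the groups overlapped (log2 fold change -0.51, SE 0.24). col6a3 was at -0.39 (SE 0.21). col6a4a (ENSDARG00000079752, chromosome 16, 36715734 to 36765821, plus strand) had 6.43, 3.68 and 6.96 CPM in mutant replicates 1 to 3, against 6.75, 14.7 and 11.5 CPM in wild type replicates 1 to 3. Mutants were lower on average but mutant replicate 3 was above wild type replicate 1 (log2 fold change -0.94, SE 0.35, edgeR adjusted p = 0.403). Without that library all mutants were below both wild types, with a log2 fold change of -1.20 (SE 0.29, edgeR adjusted p = 0.219).

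Among the short-chain network collagens, col8a1a (ENSDARG00000077403, chromosome 9, 30279910 to 30292032, plus strand) encodes a type VIII chain required for notochord shape in zebrafish. It had 193, 210.0 and 164 CPM in mutant replicates 1 to 3, against 63.9, 181 and 173 CPM in wild type replicates 1 to 3. The groups overlapped, and wild type replicate 1 was far below the other 5. The log2 fold change was 0.44 (SE 0.36) with that library and 0.10 (SE 0.13) without it. col8a2, a rarer partner chain, had 4.78, 2.40 and 1.28 CPM in mutant replicates 1 to 3, against 1.25, 3.16 and 3.17 CPM in wild type replicates 1 to 3. The values scattered widely within both groups (log2 fold change 0.17, SE 0.55, and -0.16 without wild type replicate 1). The third type VIII gene, col8a1b, and the type X genes col10a1a and col10a1b, markers of maturing cartilage and bone, had at most 10 counts in any library and were not tested.

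The largest difference from wild type of any tested member was that of col28a2a (ENSDARG00000076321, chromosome 9, 48600011 to 48673250, minus strand), a gene of the von Willebrand domain collagen type XXVIII. It had 402, 396 and 405 CPM in mutant replicates 1 to 3, against 257, 64.7 and 82.3 CPM in wild type replicates 1 to 3. The 3 mutants were nearly equal and above all wild types, and the wild types differed among themselves, with replicate 1 highest. The level averaged 401 ± 4.32 CPM in mutants and 135 ± 106 CPM in wild type (SD, n = 3 each), 2.97-fold higher in mutants (log2 fold change 1.57, SE 0.49, edgeR adjusted p = 0.34). DESeq2 called this gene (adjusted p = 0.0374). Without wild type replicate 1 edgeR called it as well, with a log2 fold change of 2.45 (SE 0.14, edgeR adjusted p = 0.00412), the only member called in any of the 6 fits that left out a library, where 0.0769% of all genes were called. Its exons overlap no other counted gene. The other type XXVIII genes were rare. col28a1a was at 1.23 CPM in mutants and 1.51 CPM in wild type (log2 fold change -0.28, SE 0.46, and -0.60 without wild type replicate 1), while col28a1b and col28a2b had at most 19 counts in any library and were not tested.

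Type VII collagen makes the anchoring fibrils that fasten the epidermis to the dermis. col7a1 (chromosome 6) averaged 77.1 ± 9.63 CPM in mutants and 73.3 ± 9.99 CPM in wild type (SD, n = 3 each), with a fitted log2 difference of 0.07 (SE 0.14). A related gene on chromosome 4 is counted as 2 models named col7a1l, one of 503 counted bases lying within the span of the other, of 7684. The shorter (ENSDARG00000093135) had 13.8, 18.5 and 16.2 CPM in mutant replicates 1 to 3, against 14.6, 12.9 and 15.2 CPM in wild type replicates 1 to 3. The longer (ENSDARG00000069692) had 66.7, 66.2 and 47.8 CPM in mutant replicates 1 to 3, against 34.3, 71.9 and 59.9 CPM in wild type replicates 1 to 3. Both overlapped between the groups, with log2 fold changes of 0.18 (SE 0.16) and 0.12 (SE 0.27), and the longer was at -0.13 without wild type replicate 1. Another gene model on the same strand covers 12.8% of the longer one's counted length.

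The multiplexins are collagens with an interrupted helix found at basement membranes. col18a1a (ENSDARG00000036558, chromosome 9), whose product yields endostatin, had 353, 349.8 and 318 CPM in mutant replicates 1 to 3, against 325, 329.8 and 318 CPM in wild type replicates 1 to 3. col15a1b (ENSDARG00000061848, chromosome 2) had 56.3, 64.3 and 68.6 CPM in mutant replicates 1 to 3, against 60.2, 61.3 and 58.6 CPM in wild type replicates 1 to 3. Both overlapped between the groups, and both had a log2 fold change of 0.07 (SE 0.10 and 0.11). col18a1b had 6 to 36 counts a library and was not tested. Of the 4 transmembrane collagen genes, all were below wild type and 0 passed. col17a1a (ENSDARG00000069415, chromosome 1), for the type XVII collagen of hemidesmosomes, had 1.17, 0.790 and 0.728 CPM in mutant replicates 1 to 3, against 2.19, 1.12 and 2.05 CPM in wild type replicates 1 to 3. Mutant replicate 1 was above wild type replicate 2, so the groups overlapped (log2 fold change -0.998, SE 0.37, edgeR adjusted p = 0.394). col17a1b (ENSDARG00000079011, chromosome 13) had 0.391, 0.334 and 0.495 CPM in mutant replicates 1 to 3, against 0.751, 0.809 and 0.392 CPM in wild type replicates 1 to 3, from 11 to 94 counts a library. Wild type replicate 3 lay among the mutants (log2 fold change -0.69, SE 0.39). For type XXIII, col23a1a (ENSDARG00000095339, chromosome 14) had 6.25, 6.50 and 9.85 CPM in mutant replicates 1 to 3, against 9.57, 7.96 and 8.29 CPM in wild type replicates 1 to 3. col23a1b (ENSDARG00000089078, chromosome 21) had 6.95, 7.51 and 7.31 CPM in mutant replicates 1 to 3, against 8.54, 6.70 and 7.99 CPM in wild type replicates 1 to 3. Both overlapped, at -0.19 (SE 0.23) and -0.10 (SE 0.18), and a gene model on the other strand, averaging 6.33 counts a library, covers 35.5% of the counted col23a1b length.

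Chains of one collagen type assemble together, so ratios between partner genes were compared as well. Of 16 ratios, 1 was higher in all mutants than in all wild types and 2 were lower. The first was that of the SERPINH1 copies. The 2 lower ones were col9a1a to col9a2 (log2 difference -1.13) and serpinh1b to col2a1a (-0.64, and -0.38 without wild type replicate 1). Each had the smallest exact permutation p that the design allows, p = 0.1 (adjusted p = 0.4). A ratio without any group difference reaches this p with a probability of 0.1. All 3 ratios use serpinh1b or col9a1a, whose own CPM ranges were apart, so they are not separate from those results. The partner ratios of the abundant types overlapped between the groups over all libraries, for some pairs through wild type replicate 1 alone. Type I is an example, where the per-kilobase ratio of col1a1a to col1a2 was 1.326, 1.419 and 1.496 in mutant replicates 1 to 3, against 1.40, 1.67 and 1.49 in wild type replicates 1 to 3, a log2 difference of -0.10 (exact permutation p = 0.5). For type IX the log2 ratio of col9a1b to col9a2 averaged 0.68 ± 0.06 in mutants and 0.68 ± 0.04 in wild type (SD, n = 3 each; exact permutation p = 0.9). The ratio of col2a1b to col2a1a was 0.260 to 0.270 in the mutants and 0.268 to 0.336 in wild type, with mutant replicate 1 just above wild type replicate 1 (exact permutation p = 0.2). Without wild type replicate 1 all mutants were lower (log2 difference -0.27). For col11a1a to col11a2 it was 5.16 to 6.46 in mutants, against 6.54, 5.07 and 5.12 in wild type replicates 1 to 3. Here all mutants were higher without wild type replicate 1 (0.23). For col4a5 to col4a6 it was 1.44 to 1.62 in mutants, against 1.54, 1.70 and 1.64 in wild type, so all mutants were lower without replicate 1. The ratio of col4a1 to col4a2 was 6.86 in wild type replicate 1 and 1.39 to 2.36 in the other 5 libraries.

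**Figure D4:**
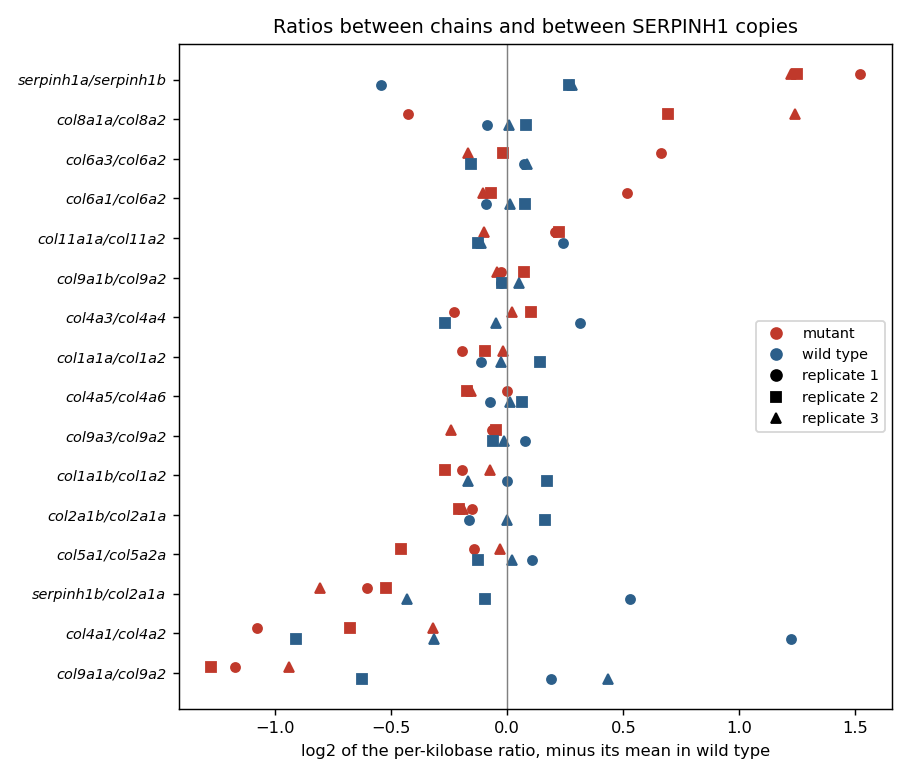
Log2 of the per-kilobase ratio of each pair in every library (x axis), after subtracting the pair's mean in wild type, with mutants in red above wild type in blue for each pair (y axis) and one marker shape per replicate. Only serpinh1a/serpinh1b lies wholly to the right of wild type; serpinh1b/col2a1a and col9a1a/col9a2 lie wholly to the left, and col4a1/col4a2 has 1 wild-type library far to the right.

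Genes that modify, export, process or bind collagen were read from the same fit. Of 19 tested genes for folding and modification, 9 were below wild type and 10 above, with a median log2 fold change of 0.02, and 0 passed by edgeR or DESeq2. The genes of smallest p were the rarer FKBP10 copy (chromosome 19), for a prolyl isomerase of the endoplasmic reticulum, at -0.64 (SE 0.23), the prolyl hydroxylase gene P4HA2 at -0.53 (SE 0.22), and SPARC, for a collagen-binding protein, at -0.25. The abundant FKBP10 copy on chromosome 12 was at 0.02 (SE 0.15). Of 15 genes for export from the endoplasmic reticulum, 7 were below and 8 above (median 0.02), and 0 passed. TRAM2 was at -0.16, sec24c at -0.15 and SEC24D at 0.46 (SE 0.39). The SEC24D groups overlapped, with mutant replicate 1 far above the rest at 77.8 CPM. Of 18 genes for extracellular processing and crosslinking, 6 were below and 12 above (median 0.19), and 0 passed. The sum of this list was higher in all mutants, at 468 to 522 CPM against 431 to 453 CPM in wild type. Among the 18, the procollagen proteinase enhancer gene PCOLCE2 (the copy on chromosome 2) was at 1.14 (SE 0.31), from 1.55 CPM in mutants and 0.695 CPM in wild type. The more abundant PCOLCE2 copy on chromosome 24 was at 0.33 (SE 0.27), and its groups overlapped. The gelatinase gene MMP2 was at 0.50 (SE 0.18) and the enhancer gene pcolcea at -0.33. Of 12 receptor genes, 3 were below and 9 above (median 0.23), and 0 passed. This split rested on wild type replicate 1, where the list summed to 109 CPM, against 218 to 255 CPM in mutants and 215 to 287 CPM in the other wild types. Without that library 7 receptor genes were below and 5 above (median -0.06). The smallest p values were those of the collagen-binding kinase gene DDR2 on chromosome 2, at 0.82 (SE 0.34) from a level near 1 CPM, of ITGA10 at -1.001 and of DDR1 at 0.46. The more abundant DDR2 copy on chromosome 6 was at 0.12 (SE 0.18).

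Other matrix genes lay on both sides of wild type. Of 18 tested, 8 were below wild type and 10 above, with a median log2 fold change of 0.20 (9 and 9, median -0.05, without wild type replicate 1). By edgeR 0 passed. At an unadjusted edgeR p under 0.05, 5 were lower and 2 higher, against 6.83% and 4.39% of all genes tested. DESeq2 called 1, which was lower (against 1.5% of all genes). This was acana (chromosome 7), for aggrecan, a proteoglycan of notochord and cartilage, which averaged 0.770 ± 0.444 CPM in mutants and 3.85 ± 0.635 CPM in wild type (SD, n = 3 each; log2 fold change -2.32, SE 0.42, edgeR adjusted p = 0.161, DESeq2 adjusted p = 3.7e-05). KERA, for the fibril-binding proteoglycan keratocan, was at -0.36 (SE 0.10), and MATN4, for the matrix adaptor matrilin-4, at -0.77 (SE 0.22). Of 11 tested transcription factor genes with roles in collagen-making tissue, 7 were below and 4 above (median -0.12), or 9 and 2 without wild type replicate 1, and 0 passed. SCX, the tendon factor scleraxis, was at -1.07 (SE 0.33), from only 10 to 13 counts per mutant library. SOX6, a partner of Sox9 in cartilage, was at -0.46 (SE 0.16) and noto, a notochord factor, at 0.51 (SE 0.20).

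Markers of tissues that make collagen were summed per library. The 11 sclerotome and fibroblast markers summed to 186 to 201 CPM in mutants and 222 to 228 CPM in wild type. Of these, 9 of 11 were below wild type (median -0.18). DESeq2 called 1 of them, a PRRX1 copy, as lower, against 1.5% of all genes. The 14 epidermis and fin fold markers summed to 11848 to 14034 CPM in mutants and 14234 to 17250 CPM in wild type. Most of this sum was krt4, at 9101 to 10608 CPM in mutants and 10429 to 13503 CPM in wild type. The ranges of krt4 alone overlapped. In the list 8 of 13 tested were below (median -0.22), and hmcn2 was at 0 in every library. Within that list the fin fold genes and1 and and2, for actinodins, were at -1.58 (SE 0.34) and -1.56 (SE 0.41). DESeq2 called both as lower (adjusted p = 0.00114 and 0.0266), against 1.5% of all genes, and called no other gene of the list. The 5 above wild type were TP63 at 0.003, fras1 at 0.01, krt17 at 0.09, epcam at 0.29 and the FREM2 copy on chromosome 10 at 0.33. The 9 fast muscle markers summed to 1818 to 3184 CPM in mutants and 3862 to 5860 CPM in wild type. All 9 were below wild type (median -1.71), and DESeq2 called 7 as lower, against 1.5% of all genes. Thus the sums of these lists were apart in the same direction as the sums of the fibrillar and type VI collagens. The summed type VII and XXVIII genes, which include col28a2a, were apart in the other direction. The part of these lists in the collagen values was not tested.

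The 13 notochord markers summed to 1042 to 1121 CPM in mutants and 965 to 1157 CPM in wild type, so the groups overlapped. In this list 8 of 13 were above wild type (median 0.11). Its member cavin4b, 1 of the 5 below, was lower in all mutants, at 60.0 to 109.1 CPM against 109.2 to 166.7 CPM in wild type (log2 fold change -0.88, SE 0.26). Whether the cavin4b counts of whole embryos come from notochord or from another tissue was not tested. Another member, noto, was higher in all mutants (0.51, SE 0.20). The 10 tailbud markers, genes of the still-forming body end, summed to 203 to 298 CPM in mutants and 131 to 158 CPM in wild type, with all 8 tested above (median 0.67) and WNT8A at 0 for 1 of its gene IDs. The 7 yolk syncytial markers summed to 12789, 5320 and 1648 CPM in mutant replicates 1 to 3, against 1942 to 4815 CPM in wild type (median 1.37). Mutant replicate 1 stood far above the rest, and mutant replicate 3 was below every wild type. By edgeR 0 genes of these 6 marker lists passed, and DESeq2 called 2 of the tailbud genes as higher, against 0.706% of all genes. Their part in the collagen values was not tested either.

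**Figure D5:**
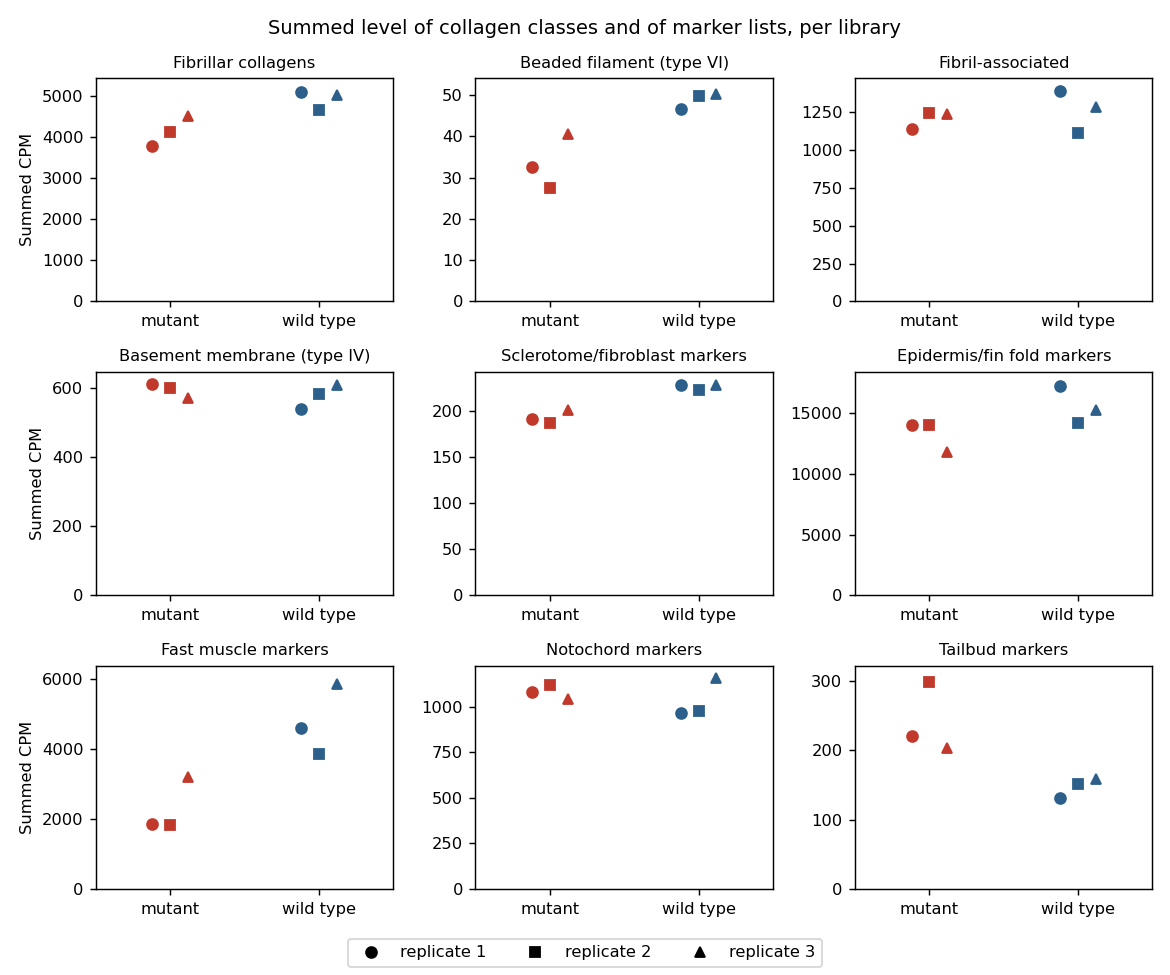
Summed CPM (y axes, each starting at 0) of 4 collagen classes and 5 marker lists in every library, mutants left and wild type right, one marker shape per replicate. The 4 classes are a selection. The groups do not overlap for the fibrillar and type VI collagens (lower in mutants). Not shown is the class of type VII and XXVIII genes, whose sum was higher in all mutants. It was 538 to 571 CPM in mutants and 228 to 374 CPM in wild type, with col28a2a the main difference. They do not overlap either for the sclerotome and fibroblast, epidermis and fin fold, and fast muscle markers (lower) and the tailbud markers (higher). Most of the epidermis and fin fold sum is krt4, whose own ranges overlap. The groups overlap for fibril-associated and type IV collagens and notochord markers.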

How the data were processed

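RNA-seq counts of 6 whole-embryo libraries were used, grouped by sample titles. The authors deposited raw counts per Ensembl gene, with GRCz10 coordinates and exonic length, per the file headers. Trimmomatic 0.36, STAR 2.5.2b and GRCz10 are named, per the submitters' processing notes. The sources used here name neither the counting program nor its strand and multi-mapping settings, and no annotation release.

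Symbols came from a name table, which covers 25752 of 31484 IDs. The 24 members with human-style symbols took the RefSeq (GRCz12tu) symbol of the same stem on the same chromosome. Counts were filtered (filterByExpr), scaled by TMM and tested with edgeR 4.0.16 in R 4.3.3 (robust quasi-likelihood, two-sided, mutant over wild type, no covariate, Benjamini-Hochberg over all 20415 tested genes, threshold 0.05). DESeq2 1.42.0 and limma-voom (limma 3.58.1) were alternatives. SE is the log2 fold change divided by the square root of F. RPKM used the deposited exonic lengths. Ratios used chains averaging at least 1 CPM, and type IX entered with both col9a1 copies. Code was tested on simulated counts.

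Values per library were given for both SERPINH1 copies, for members with an adjusted p under 0.05, and in each structural class for the 3 members highest in RPKM and the 2 with the smallest p. From each related gene list the 3 with the smallest p were named. Per-library values of col1a2, col2a1b and col5a3a were chosen after their values were seen. So were the genes and1, and2, krt4 and cavin4b, the epidermis and fin fold markers above wild type, and the abundant FKBP10, PCOLCE2 and DDR2 copies. The members and lists were chosen with earlier results of these data known. List genes were matched by symbol ignoring case, otherwise by the human-style stem.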

Additional observations from a re-analysis of the deposited data

How the results depend on the processing

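By edgeR 15 genes changed over all genes tested and 0 of the members. The count over all genes was 44 with no filter on low counts, 8 at a minimum of 1 CPM in 3 libraries, 450 with DESeq2, 9 with wild type replicate 1 thinned to the mean depth of the others, and 0 to 16 with 1 library left out. For the members it was 3 with DESeq2 and 0 to 1 with 1 library left out (1 without wild type replicate 1). For the collagen-related lists it was 0, and 1 with DESeq2. Without wild type replicate 1, an alternative for the lists' directions added after seeing the data, the number above wild type was 5 in place of 9 for receptors and 2 in place of 4 for transcription factors, and moved by at most 1 for the other 4 lists. The replicate numbers were also fitted as a replicate block, which gave 0 genes over all and 0 members. Same-numbered libraries deviated together with correlations of -0.233, -0.0971 and 0.182 for numbers 1 to 3, and mutant replicates 1 and 2 correlated best with a wild type of another number, so the number is not taken as a pairing. The members' median log2 fold change was -0.11 to -0.06 with 1 library left out, and -0.09 to -0.07 under the other alternatives. Directions of near-zero values were not stable. With total-count scaling col9a1b was at 0.00016 and col9a2 at 0.00078. With 1 library left out, the log2 fold change was -0.11 to 0.065 for col9a1b, -0.10 to 0.081 for col9a2, -0.065 to 0.033 for col4a5, -0.055 to 0.17 for col4a1, -0.43 to 0.52 for col8a2 and -0.13 to 0.38 for the longer col7a1l model. The log2 ratio difference was -0.17 to 0.12 for col4a3 to col4a4 (0.033 with the thinned library), -0.035 to 0.025 for col9a1b to col9a2, -0.087 to 0.22 for col6a1 to col6a2 and -0.093 to 0.32 for col6a3 to col6a2. The cause was not tested. Among the 30 members followed through the 16 alternatives, those not listed here kept their direction in each. Members under about 1 CPM rest on few counts in the 5 shallower libraries.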

Other observations

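Of 7 neighbouring pairs of members, 4 had log2 fold changes of the same sign (the col7a1l models, col4a1 with col4a2, col4a4 with col4a3, and col6a2 with col6a1) and 3 of opposite signs, among them col4a6 with col4a5. col9a2 and col16a1 lie tail to tail on chromosome 19, 6017 bases apart, and had log2 fold changes of -0.03 and 0.08 (mutant over wild type). The longer col19a1 model and col9a1b lie tail to tail on chromosome 13, 3496 bases apart, and were at 0.28 and -0.03. Several of these signs belong to values near 0 and were not stable. Without wild type replicate 1 the nested col7a1l models had opposite signs (0.20 for the shorter and -0.13 for the longer). In that fit col9a2 and col16a1 (0.08 and 0.01) shared a sign, as did the longer col19a1 model and col9a1b (0.23 and 0.06). None of these values passed by edgeR or DESeq2.

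The gene col10a1a had 0 counts in the 3 mutant libraries and 1 to 2 in each wild type, and col28a2b had 0 to 2 counts in mutants and 1 to 16 in wild type. At these depths no difference was detectable, and no fold is given.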
